A study of Homo sapiens with 2 samples.

Results

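A set of 10 transcription factor genes that mark lung, basal and other epithelial lineages were compared between a lung adenocarcinoma line and a gefitinib-resistant line derived from it. The genes were NKX2-1, TP63, SOX2, SOX4, SOX9, SOX12, SOX13, GATA2, GATA3 and GATA6. They were chosen with earlier results of these data known and were picked by symbol. All 10 were found among the 20985 genes of the table. The parental group is HCC827, an established human line whose growth depends on a mutant EGFR kinase, the target of gefitinib. The resistant group is HCC827 ZDR3, made by culture in gefitinib, with 1 month at a starting 10 nM. The dose was then raised in 3-fold steps until the cells grew at 1 µM, after which 3 colonies were picked. The labels do not say how ZDR3 relates to those colonies or whether the drug was present at harvest. Each group held 1 library of polyadenylated RNA from cultured cells, with 257192607 reads over genes in the parental and 243549869 in the ZDR3 library. With 1 library a group there was no test and no replicate check, so every difference below is one between these 2 libraries.

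Lineage factors bind DNA near the genes of a cell's identity and often hold their own expression up. NKX2-1 specifies the lung bud, drives surfactant genes in alveolar cells and is used to diagnose lung adenocarcinoma. TP63 maintains basal cells of airway and skin, and SOX2 marks the proximal airway and squamous tumours. SOX9 marks the distal tips of the growing lung, GATA6 is needed for its endoderm, and GATA2 and GATA3 are best known from blood cells and from breast and urothelial epithelium.

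The 3 factors that define airway and lung identity, SOX2, TP63 and NKX2-1, were far lower in ZDR3, and SOX13 was lower as well. GATA6, GATA2, SOX9 and SOX4 were close to their parental levels and GATA3 was somewhat lower, and SOX12 was higher by less than 2-fold. Levels are normalised reads. A unit equals 143 parental reads or 138 ZDR3 reads. The log2 ratio puts ZDR3 over parental with 1 unit added to each level, and genes that reached a level of 1 in either library count as expressed. Genes are called lower or higher where the log2 ratio is at or past -1 or 1, a 2-fold difference. All 10 factors were expressed. Of these 4 were called lower, where 9.68% of the 13777 expressed genes were, and 0 were called higher, where 10.6% were. Their median log2 ratio was -0.55, beside -0.03 over all expressed genes. As the factors were chosen with earlier results of these data known, these values are descriptions. In bulk RNA, fewer cells with a transcript and less of it per cell cannot be told apart.

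**Figure D1:**
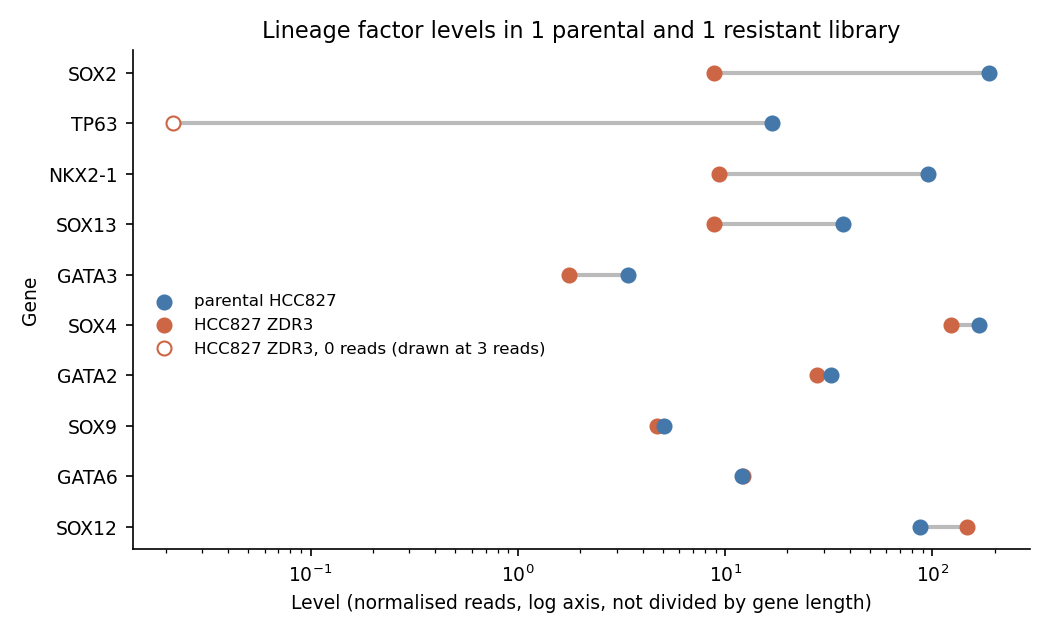
Level of each factor in the parental (blue) and ZDR3 (red) library, in normalised reads on a log axis, with genes ordered by log2 ratio; there is 1 library per group and so no error bar. SOX2, TP63, NKX2-1 and SOX13 lie well to the left in ZDR3, the points of GATA6 nearly coincide at 12.1 and 12.2, and the open circle marks TP63, which had 0 ZDR3 reads and is drawn at 3 reads.

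The regulatory starts of the factors at the ends of this order are shown so that their base composition can be compared. Each sequence is the 250 bases before a RefSeq transcript start on build GRCh38.p14, 5′ to 3′ on the gene's strand, with CpG dinucleotides in capitals. NKX2-1 has 2 windows. SOX2, NKX2-1 and TP63 had the lowest log2 ratios and SOX12 the highest.
SOX2, chr3:181711675-181711924, + strand: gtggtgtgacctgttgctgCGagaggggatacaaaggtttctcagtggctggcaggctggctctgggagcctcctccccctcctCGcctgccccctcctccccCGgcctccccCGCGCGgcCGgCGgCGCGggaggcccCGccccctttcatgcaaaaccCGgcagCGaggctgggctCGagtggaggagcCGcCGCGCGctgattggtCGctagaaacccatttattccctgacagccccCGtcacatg
NKX2-1, chr14:36520233-36520482, - strand: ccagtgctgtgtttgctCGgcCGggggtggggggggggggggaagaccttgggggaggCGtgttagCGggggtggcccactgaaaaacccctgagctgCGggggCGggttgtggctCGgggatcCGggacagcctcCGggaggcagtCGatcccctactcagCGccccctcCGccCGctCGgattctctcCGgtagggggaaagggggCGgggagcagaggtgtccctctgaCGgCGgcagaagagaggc
NKX2-1, chr14:36519557-36519806, - strand: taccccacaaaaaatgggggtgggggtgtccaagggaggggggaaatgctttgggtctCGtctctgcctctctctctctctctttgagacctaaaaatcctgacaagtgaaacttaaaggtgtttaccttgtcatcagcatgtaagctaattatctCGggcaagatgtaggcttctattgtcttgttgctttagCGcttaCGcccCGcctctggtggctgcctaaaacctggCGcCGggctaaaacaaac
TP63, chr3:189631139-189631388, + strand: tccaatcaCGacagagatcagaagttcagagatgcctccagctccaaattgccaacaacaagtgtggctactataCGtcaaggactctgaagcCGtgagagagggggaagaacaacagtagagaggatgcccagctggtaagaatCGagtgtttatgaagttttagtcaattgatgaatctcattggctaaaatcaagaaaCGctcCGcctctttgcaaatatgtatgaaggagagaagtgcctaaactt
SOX12, chr20:325302-325551, + strand: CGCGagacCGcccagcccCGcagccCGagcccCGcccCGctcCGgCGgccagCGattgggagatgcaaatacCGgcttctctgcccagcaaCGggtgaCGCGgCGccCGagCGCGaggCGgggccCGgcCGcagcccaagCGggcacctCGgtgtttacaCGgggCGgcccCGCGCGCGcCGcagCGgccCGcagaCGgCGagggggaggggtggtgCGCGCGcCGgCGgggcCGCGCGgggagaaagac
The windows differed in CpG number. SOX12 had 42 CpG, more than 98.6% of the 35116 windows in the RefSeq table, whose median was 11. The SOX2 window had 20 and the windows of NKX2-1 had 18 and 7. TP63 had 6, fewer than the median window. Its only window lies at the upstream start, and the internal start of its shorter isoforms, described below, has no window here. Of the 10 factors 9 had windows, 16 in all, and SOX9 was not matched. Among the factors near their parental level the windows were also mixed, with 16 CpG for GATA6, 24 and 18 for GATA2 and 8 for SOX4, so CpG number did not separate the factors that fell from the others.

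In all, 4 short motifs were searched on both strands of these windows. The SOX motif ACAANG was found in the SOX2 window, in the second NKX2-1 window and in 2 of the GATA3 windows, and 30.9% of all windows hold it. The GATA motif AGATAA was found in the second NKX2-1 window alone (9.17% of all windows hold it). The AP-1 motif TGANTCA was found in 1 GATA3 window alone (6.57%), and the NKX2-1 motif CTCAAG in none of the 16 (10.4%). No matches of different motifs overlapped.

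SOX2, which opens and holds stem and airway cell programmes, was at 187 in parental cells and 8.81 in ZDR3, from 26787 and 1212 reads. The parental level was 21.3-fold that of ZDR3, with an exact 95% Clopper-Pearson interval of 20.1 to 22.6 from counting alone. All intervals here are of that kind, and they cover counting error only, because without molecular identifiers the reads cannot be taken for separate molecules. The log2 ratio was -4.26, and 99 of the 13777 expressed genes had a lower one. SOX2 thus remained detectable in ZDR3, unlike TP63.

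TP63 had 2398 reads in the parental library, a level of 16.8, and 0 reads in ZDR3. Against a floor of 3 reads in the ZDR3 library it was at least 770-fold lower. Its log2 ratio of -4.15 depends on the added unit and understates the difference. TP63 encodes long TA isoforms and shorter ΔN isoforms from an internal start, and the gene-level value does not separate them. Its relative TP73, a p53-family gene named here after its values were seen, was at 2.80 in parental cells and 1.96 in ZDR3 (log2 ratio -0.36), so the difference in TP63 did not extend at that size to TP73.

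NKX2-1 was at 95.0 in parental cells and 9.33 in ZDR3, from 13574 and 1284 reads. The parental level was 10.2-fold that of ZDR3 (9.62 to 10.8), with a log2 ratio of -3.22, and 188 expressed genes had a lower one. An antisense gene that overlaps it, NKX2-1-AS1, was lower too, at 4.53 and 0.356, a parental over ZDR3 ratio of 12.7 (9.51 to 17.4). SOX2-OT, a long RNA whose gene encloses SOX2 on the same strand, was at 2.76 and 0.312, a ratio of 8.85 (6.45 to 12.4). Whether the authors counted by strand is not given in the sources used, so reads of NKX2-1 and its antisense partner may have been split between them. SOX2 and SOX2-OT lie on the same strand, and how reads that fall in both were counted is not given in those sources either.

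SOX13, a SOXD protein with no activation domain of its own, was at 36.9 in parental cells and 8.82 in ZDR3. Its parental level was 4.18-fold that of ZDR3 (3.93 to 4.45), and its log2 ratio was -1.95. This fall was smaller than those of SOX2, TP63 and NKX2-1 and still among the lowest 3.29% of expressed genes.

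GATA6 and GATA2 differed little, and GATA3 more. GATA6, which acts in lung and gut endoderm, was at 12.1 in parental cells and 12.2 in ZDR3, a ZDR3 over parental ratio of 1.01 (0.944 to 1.08). GATA2, a factor of blood progenitors, endothelium and mast cells that has also been studied in lung cancer lines, was at 32.5 and 27.8, a ratio of 0.857 (0.820 to 0.894). The counting interval of GATA6 includes 1 and that of GATA2 does not, although the difference for GATA2 is small. GATA3, a factor of luminal epithelium and T cells, was at 3.41 and 1.77 from 487 and 244 reads. Its parental level was 1.92-fold that of ZDR3, and the interval of 1.65 to 2.25 takes in both sides of a 2-fold difference. Its log2 ratio with 1 unit added was -0.67.

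SOX4, SOX9 and SOX12 complete the set. SOX4, a SOXC factor active in progenitors and in response to TGF-beta, was at 167 in parental cells and 123 in ZDR3, a ratio of 0.738 (0.723 to 0.753). SOX12, its SOXC relative, was at 87.1 and 147, a ratio of 1.69 (1.65 to 1.72) and a log2 ratio of 0.75. SOX9, a SOXE factor of the distal lung and of cartilage, was at 5.09 and 4.71, a ratio of 0.925 (0.831 to 1.03). The SOXC pair thus moved in opposite directions by less than 2-fold, and for SOX9 no difference was detectable beyond counting error.

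The chromosome around each factor was compared with it, to see whether the genes beside it differed as well. For each factor the 20 nearest expressed genes on each side were taken. SOX2 lay below all 40 of its neighbours, whose median log2 ratio was -0.26, and NKX2-1 below all 40 of its own, whose median was -0.05. The expressed genes next to SOX2 are SOX2-OT and ATP11B, the latter at 91.6 in parental cells and 58.2 in ZDR3 (log2 ratio -0.65). Beside NKX2-1 lie NKX2-1-AS1 and SFTA3, a lung-restricted gene that was at 1.60 and 0.124 (-1.21). Of the 40 neighbours of NKX2-1, 7 were called lower and 0 higher, beside 9.68% and 10.6% of all expressed genes. FOXA1 (-1.96) is among those lower neighbours. Among the 40 neighbours of TP63, whose median was -0.28, 3 had a log2 ratio below its own. That rank uses the ratio with 1 unit added, which understates the difference in TP63. The 3 genes, named after their values were seen, were LIPH (128 and 3.53), MUC20 (333 and 14.8) and MUC4 (258 and 0.312). All 3 kept reads in ZDR3, where TP63 had 0. The flanks of TP63 went separate ways. TPRG1 was at 2.53 and 0.959 (-0.85) and LEPREL1, a collagen prolyl hydroxylase gene, at 6.05 and 70.8 (3.35). SOX13 had 3 neighbours of 40 with a log2 ratio below its own, and the median of the 40 was -0.33. Its flanks SNRPE (36.1 and 33.1) and ETNK2 (42.4 and 25.6) were within 2-fold.

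SOX12 was above all 22 expressed neighbours in its window, which is short because the gene lies near the end of chromosome 20. Their median was -0.13, while the adjacent NRSN2 was at 32.8 in parental cells and 54.8 in ZDR3 (0.72), close to SOX12 itself. The next genes on that side, TRIB3 (0.58) and RBCK1 (0.74), named after their values were seen, were higher as well, by less than 2-fold. Of the 22 neighbours, 7 were called lower and 0 higher, beside 9.68% and 10.6% of all expressed genes. The GATA factors, SOX4 and SOX9 lay inside the spread of their neighbours. Below the factor's own ratio lay 6 of 40 neighbours for GATA2 and for GATA3, 20 for GATA6, 11 for SOX4 and 12 for SOX9. With the median of its neighbours subtracted, each of SOX2 (-4.00), TP63 (-3.87), NKX2-1 (-3.16) and SOX13 (-1.62) was still past 2-fold, and each of the other 6 was still within it.

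**Figure D2:**
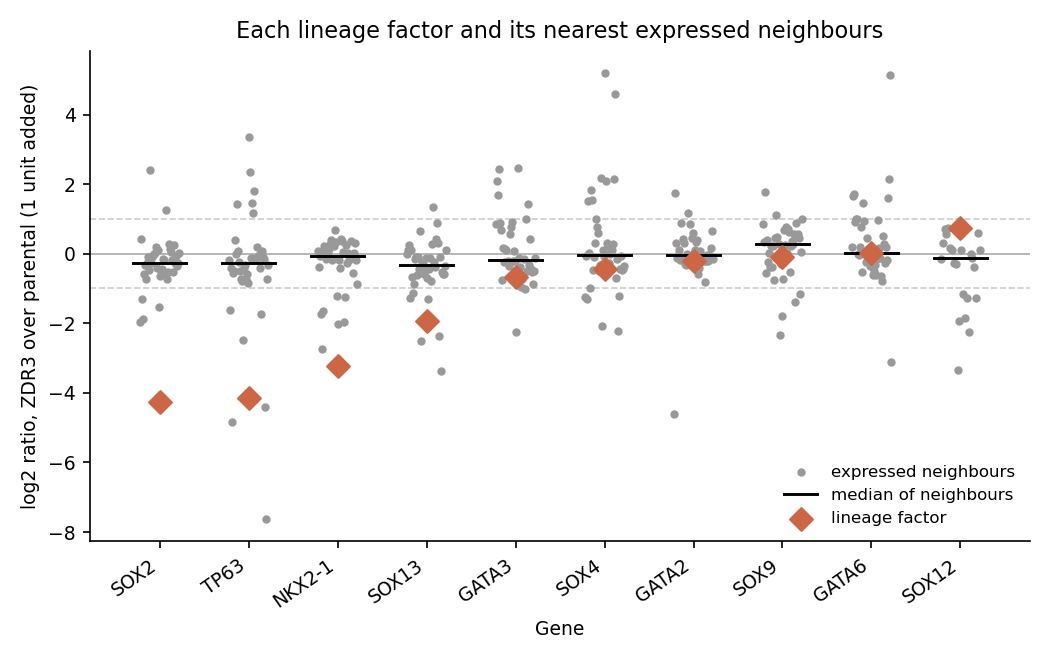
log2 ratio of each factor (diamond) with those of its nearest expressed genes on the same chromosome (grey points, 20 on each side or 22 in all for SOX12) and their median (bar); dashed lines mark 2-fold. SOX2 and NKX2-1 lie below every neighbour and SOX12 above every one, while GATA6 lies in the middle of its group.

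Levels of different genes were compared only after division by the length of their exons in GENCODE release 29, in normalised reads per kilobase. In the parental library SOX2 led the SOX family at 74.6 per kilobase, followed by SOX4 at 28.6, SOX12 at 18.8 and SOX13 at 4.97. In the ZDR3 library SOX12 led at 31.7, then SOX4 at 21.1, and SOX2 came after both at 3.50. SOX2 made up 56.8% of the per-kilobase SOX total in the parental and 5.76% in the ZDR3 library, while the share of SOX12 went from 14.3% to 52.2%. The total itself was 131 in parental cells and 60.8 in ZDR3. SOX9 (1.29 and 1.20) was at the level of SOX7 (1.28 and 1.10) in both. Dividing by the longest transcript instead gave SOX2 shares of 54.5% and 5.62%, and the order of the leading 3 genes was the same in each library.

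Among the SOX subgroups, the SOXB genes, which act in stem and neural cells, were lower as far as they had reads. SOX1 was at 1.45 in parental cells and 0.0872 in ZDR3, a parental over ZDR3 ratio of 16.6 (9.31 to 32.7). SOX21, a repressor of the same subgroup, was at 1.45 and 0.0581, a ratio of 24.9 (12.4 to 58.5). SOX3 and SOX14, the other SOXB genes, had 0 reads in both, which allows levels up to 0.0210 and 0.0218. The SOXB total was 75.6 per kilobase in the parental and 3.56 in the ZDR3 library, and nearly all of it was SOX2 (74.6 and 3.50). The SOXC total, by contrast, was 47.4 and 52.8, with SOX11 at 0 reads in both. In the SOXD group SOX6, the partner of SOX5 in cartilage, was at 0.567 and 3.25, a ZDR3 over parental ratio of 5.73 (4.51 to 7.35), opposite to SOX13, and SOX5 had 0 reads in both. Smaller differences were seen for SOX7 (4.11 and 3.52) and SOX15 (1.13 and 0.850). Of 10 expressed SOX genes 4 were called lower (9.68% of all expressed genes) and 1, SOX6, was called higher (10.6%), with a median of -0.32. The 5 SOX factors of the set are counted there, and without them 2 of 5 were called lower and 1 higher. The levels of SOX1, SOX21 and SOX6 are near the minimum. With a pseudocount of 5, a minimum level of 5 or levels per kilobase, 2 of the SOX genes were called lower and 0 higher. Those 2 were SOX2 and SOX13, both among the factors.

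Per kilobase GATA2 stood above GATA6, and GATA6 above GATA3, in both libraries. GATA2 was at 7.28 and 6.24, GATA6 at 3.07 and 3.10 and GATA3 at 0.992 and 0.516, while GATA1, GATA4 and GATA5 had at most 7 reads in either library. The expressed cofactors went both ways, and those past 2-fold were higher. ZFPM1 (FOG1), which binds the GATA zinc finger, was at 4.42 in parental cells and 10.1 in ZDR3 (log2 ratio 1.04), and ZFPM2 (FOG2) was at 1.15 and 3.70 (1.13). LMO4, a LIM adaptor that joins GATA factors to LDB1, was at 61.7 and 154 (1.31), in a stretch of chromosome 1 whose expressed genes around it had a median log2 ratio of 0.66. LDB1 was at 38.2 and 38.4, and the GATA-type repressor TRPS1 at 29.2 and 21.4 (-0.43). Under the minimum level, the cofactors TAL1 and LDB2 had 63 and 59 parental reads and 6 and 0 in ZDR3. LMO1 went the other way, with 0 parental reads and 53 in ZDR3. Of 8 expressed GATA genes and cofactors 3 were called higher (10.6% of all expressed genes) and 0 lower (9.68%), with a median of 0.01. With a pseudocount of 5 or levels per kilobase 1 was called higher.

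**Figure D3:**
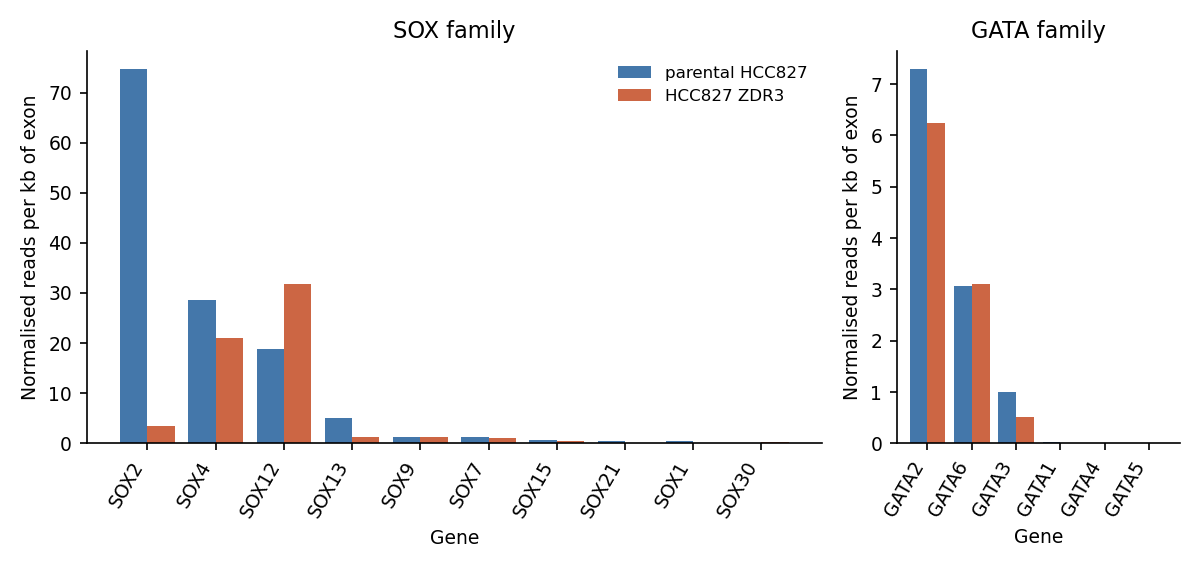
Levels per kilobase of exon in the parental (blue) and ZDR3 (red) library for SOX genes above 0.2 per kilobase in either library and for all 6 GATA genes; axes start at 0 and differ in scale. SOX2 is the tallest parental bar at 74.6 and falls to 3.50, SOX12 is the tallest ZDR3 bar at 31.7, and GATA2, GATA6 and GATA3 stand in the same order in both.

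Genes that work with these factors were read from lists that were drawn up with earlier results of these data known, so their counts are descriptions, to be read beside the 9.68% lower, the 10.6% higher and the median of -0.03 over all expressed genes. In the list around NKX2-1, 15 of 29 genes were expressed, 8 were called lower and 3 higher, with a median of -1.21. NKX2-1 is counted there, and without it 7 of 14 were called lower. MUC1, a membrane mucin, was at 457 in parental cells and 10.96 in ZDR3 (log2 ratio -5.26). SLC34A2, the phosphate transporter of alveolar type II cells, was at 39.8 and 0.0945 (-5.22). SFTA2, a surfactant-associated gene, had 0 ZDR3 reads and was at least 930-fold lower from a parental level of 20.3. NAPSA, the aspartic protease that processes surfactant protein B, was at 27.5 and 6.11. FOXA1 and FOXA2, forkhead partners of NKX2-1, were at 110 and 27.6 (-1.96) and at 12.2 and 3.67 (-1.50). The list was not uniform: ABCA3, the surfactant lipid transporter, was at 13.4 and 175 (3.62). The other genes that were higher, named after their values were seen, were CEBPA (log2 ratio 1.88) and AQP4 (0 and 278 reads). The surfactant gene SFTPB, among the markers of the line, was under the minimum level in both, at 0.413 and 0.480.

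Around TP63 the list of basal and squamous genes had 21 of 29 expressed, of which 11 were called lower and 2 higher, with a median of -1.08. TP63 is counted there, and without it 10 of 20 were called lower. COL17A1, the hemidesmosome collagen, was at 407 in parental cells and 2.70 in ZDR3, and the integrin subunit ITGB4 was at 314 and 21.3. The desmosomal cadherin DSC3 was at 10.5 and 0.320. The desmosome plaque gene PKP1 had 0 ZDR3 reads, as TP63 did, and was at least 277-fold lower. The 2 higher genes, named after their values were seen, were S100A2 (14.7 and 37.5) and TRIM29, which rested on 4 parental reads against 186. The other 8 were within 2-fold. Among them, also named after their values were seen, were the integrin subunit ITGA6 (546 and 534) and LAMA3 (329 and 302). The keratins KRT5 (0.700 and 0.0945) and KRT17 (0.665 and 0.0799) were under the minimum level in both libraries.

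SOX2 is known from pluripotent cells, but of the 15 pluripotency genes of a list that holds it 5 were expressed here, with 2 called lower (SOX2 itself and PROM1), 1 higher and a median of -0.31. PROM1, the stem cell surface antigen CD133, had 331 parental reads and 0 in ZDR3, at least 106-fold lower. MYC was at 532 in parental cells and 1593 in ZDR3 (log2 ratio 1.58), KLF4 at 20.04 and 25.8, and POU5F1 at 5.77 and 4.45, though reads of POU5F1 are uncertain because it has close pseudogene copies. In the list of distal lung progenitor genes, which holds SOX9 and GATA6, 10 of 13 expressed genes were within 2-fold, and the median was -0.02. The exceptions were NKX2-1 on the lower side and, on the higher side, BMP4 (1.20 and 4.13) and FOXP2, a forkhead repressor of the lung epithelium, at 0.280 and 53.3 (5.41). ID2 (21.1 and 33.5), FOXP1 (65.7 and 114) and HMGA1 (5221 and 3183, a gene with pseudogene copies) were within 2-fold.

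GATA3 differed less than most of the epithelial factors listed with it. Of 19 expressed genes of the luminal list, GATA3 included, 12 were called lower and 1 higher, with a median of -1.43. The higher gene, TBX3 (6.43 and 14.9), was named after its values were seen. The ETS factor EHF was at 375 in parental cells and 0.189 in ZDR3, and the grainyhead factor GRHL2 at 89.3 and 0.0581. GRHL1 was at 52.6 and 3.94. TFAP2A (162 and 8.15) and TFAP2C (12.1 and 0.930), AP-2 factors of luminal and neural crest cells, were lower, as was the ETS factor SPDEF (10.2 and 0.109). Of 8 expressed genes of the endoderm list, GATA6 included, 3 were called lower and 2 higher, with a median of -0.34. Its lower genes include FOXA1 and FOXA2, which are also counted in the list around NKX2-1. FOXA1 is counted in the luminal list too, so these counts are not separate from each other. The cut-homeobox factor ONECUT2 was at 3.24 and 8.52 (1.17), while the Krüppel-like factor KLF5 was at 129 and 33.4 (-1.91) and HHEX at 4.997 and 2.70 (-0.70). GATA6 differed by 0.01 on the log2 scale, while the factors listed with it went both ways.

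**Figure D4:**
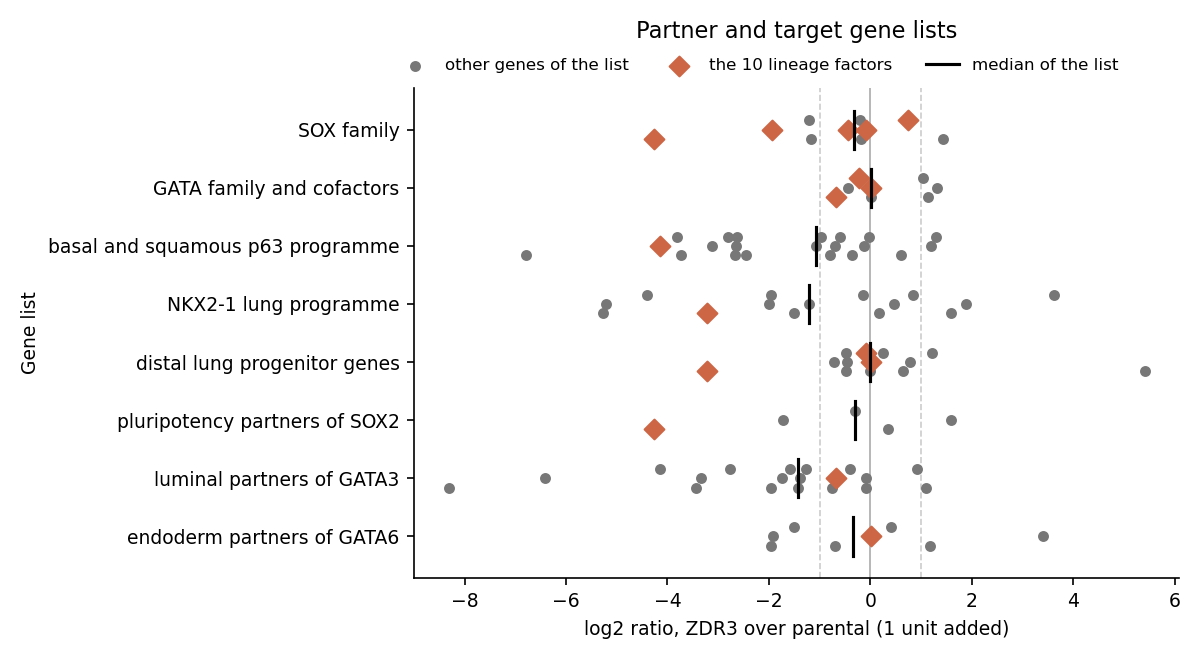
log2 ratio of every expressed gene in 8 lists of partners, relatives and targets (grey points), with the 10 factors as diamonds and the median of each list as a bar; dashed lines mark 2-fold. The lists around NKX2-1, TP63 and GATA3 have medians of -1.21, -1.08 and -1.43, and the other 5 lie between -0.34 and 0.01, with the pseudocount and minimum level used here. Some genes, such as FOXA1, stand in several lists.

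Markers of the line and of other cells were checked beside these values. Of 11 lung adenocarcinoma and epithelial markers 10 were expressed, and 8 were called lower in ZDR3 (9.68% of all expressed genes). NKX2-1 is counted there, and without it 7 of 9 were called lower. MUC1, NAPSA, KRT7, KRT8, KRT18 and KRT19 also stand in the NKX2-1 or luminal list above. Among the lower markers were EPCAM (527 and 62.4) and CDH1 (1271 and 146), while KRT7 was at 2615 and 1990. The epithelial markers apart from SFTPB were thus present in both libraries. Summed levels of endothelial markers were 2.81 in parental cells and 1.98 in ZDR3, those of blood cell markers 7.13 and 2.14, those of fibroblast markers 9.60 and 1.998 and those of neuroendocrine markers 0.616 and 2.67. Their part in the results was not tested. COL1A1 (9.15 and 1.76) made up most of the fibroblast sum, and DLL3 (0.336 and 2.46) most of the neuroendocrine one. The blood cell genes CD3E, HBB and MS4A2, the fibroblast genes COL3A1, THY1 and POSTN, and the neuroendocrine genes NEUROD1 and INSM1 had 0 reads in both.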

How the data were processed

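RNA from 1 culture of each line was polyA-selected and read on an Illumina HiSeq, per the labels' protocols. The submitters' processing notes name TopHat. The sources used here give no version, build, counting tool or strand setting. The authors deposited 1 log2 value per gene and library under a name that says RPKM. Back-transformed, the values were whole multiples of 1 step per library for 100% of genes with 1 to 100000 reads (within 0.1 read), so they are scaled reads not divided by length. Genes at the lowest value, 0.9 of a read, were set to 0 (3504 parental and 3573 ZDR3 genes). The design had been laid out for normalised values and was kept. The pseudocount was 1, the minimum level 1 and the fold threshold 2. No count model was used, since each group had 1 library.

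The factors and lists were chosen with earlier results of these data known. Genes named were all 10 factors, every expressed gene of the SOX and GATA lists, up to 6 expressed genes per other list with the largest absolute log2 ratio, antisense or enclosing partners, the nearest expressed gene on each side, and cell type markers. SFTA3 falls under the neighbours. Some genes that this takes in are not reported here. Position and exon length came from GENCODE release 29 (20162 genes by identifier and 443 by symbol), which need not be the authors' annotation. Promoter windows came from RefSeq on GRCh38.p14. Intervals were Clopper-Pearson (scipy 1.17.1, Python 3.11.15). The fold call was tested on simulated data. Alternatives were 2 other pseudocounts, 2 other minimum levels, 2 other scalings, levels per kilobase and subtraction of the neighbours' median.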

Additional observations from a re-analysis of the deposited data

How the results depend on the processing

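The number of factors at least 2-fold lower was 4, and at least 2-fold higher 0, under every alternative run, with the same 4 genes. The log2 ratio ranged from -4.40 to -3.80 for SOX2, from -7.40 to -1.70 for TP63, from -3.33 to -2.80 for NKX2-1 and from -2.05 to -1.45 for SOX13. That of SOX12 ranged from 0.72 to 0.88, and that of GATA6 was below 0 in 1 setting (-0.02, neighbours subtracted). GATA3 was under the minimum level at a minimum of 5 and per kilobase, so it gave no value there. The 2 other scalings moved the median of all genes by 0.02 and 0.04.

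Counts over lists moved with the pseudocount, the minimum level and length, because many list genes are near the minimum. With a pseudocount of 5, all expressed genes gave 901 higher and 865 lower (main 1463 and 1333), SOX genes 0 higher and 2 lower, GATA genes and cofactors 1 higher, basal genes 1 higher, NKX2-1 genes 1 higher, distal genes 1 higher, pluripotency genes 1 lower, luminal genes 0 higher and endoderm genes 1 higher. With a minimum of 5, SOX genes gave 0 higher and 2 lower, basal, NKX2-1 and distal genes 1 higher each and pluripotency genes 1 lower. Per kilobase, all genes gave 920 higher and 901 lower, SOX genes 0 higher and 2 lower, GATA genes and cofactors, basal, distal and endoderm genes 1 higher each, luminal genes 0 higher and pluripotency genes 1 lower. List medians moved too. With no minimum, a minimum of 5, a pseudocount of 0.1 and one of 5, the median was 0, -1.73, -1.70 and -0.37 for NKX2-1 genes, -0.64, -2.64, -2.45 and -0.69 for basal genes and -1.34, -1.58, -1.58 and -1.43 for luminal genes. With a minimum of 5 it was 0.02 for pluripotency genes (0.04 per kilobase) and 0.01 for endoderm genes (main -0.31 and -0.34).

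The 1 library per group limits every result, as spread between cultures is unknown and there was no replicate to leave out. No paired analysis was possible because each group had 1 library and the labels carry no replicate numbers. TP63, PKP1, SFTA2 and PROM1 had 0 ZDR3 reads, so their ratios are bounds.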
